A study of Mus musculus with 12 samples.

Results

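The 9 genes described here, Spic, Vax2, Pitx1, Trpm1, Tmem54, Pla1a, Grp, Tnfsf11 and Il1rl1, were chosen because their signal differed strongly between the days and arms of a mouse embryonic stem (ES) cell culture experiment. They were read from 14 probes of one-colour expression arrays, found by gene name. The 9 are a selection from 28786 genes on the array, of which 21977 were well above background on 2 or more arrays and were tested. The 9 genes passed that filter, with 13 of their 14 probes. They were selected on their arm and day differences in these arrays, so differences between arms and days are given below as descriptions with a standard error and without a test.

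The arrays measured RNA of Dazl-GFP and Stella-GFP reporter cells, 2 lines, on 12 arrays, 1 for each line, arm and day. The groups, with 2 arrays each, were serum-free cells at day 0, day 3 and day 10 and FBS cells at day 0, day 3 and day 10. Serum-free cells, whose source label reads 2i, grew in B27N2 medium, and FBS cells in DMEM with 15% fetal bovine serum. Both arms received leukemia inhibitory factor (LIF) and grew on irradiated mouse embryonic fibroblast feeders, so feeder RNA can be present in every sample. The 2i treatment named in the labels is 1 µM PD0325901, which inhibits MEK, with 5 µM Kenpaullone, which inhibits GSK3β. The labels do not say whether FBS cells received the inhibitors, nor what separates day 0 of the serum-free arm from its later days. Each arm and day was measured once in each line, so the spread in a group is the spread between 2 lines, and nothing tells biological from technical spread within a line. ES cell identity was checked with 7 markers, which were well above background in each of the 6 groups. Markers of primitive endoderm, 7 in all, were also above background in each group, at sums of 64.0% to 400.1%.

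As background, MEK inhibition blocks signalling to ERK, which drives ES cells towards differentiation, and GSK3 inhibition stabilises β-catenin. With LIF the pair of inhibitors holds mouse ES cells in the state called naive or ground state pluripotency. The 9 genes are in none of the readout lists used below for these pathways. They comprise transcription factors (Spic, Vax2, Pitx1), an ion channel (Trpm1), a membrane protein (Tmem54), a secreted phospholipase (Pla1a), secreted or membrane-bound signals (Grp, Tnfsf11) and a cytokine receptor (Il1rl1).

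Signals are given as a percentage of the array's 75th percentile, so 100% equals that percentile on the array concerned. Differences are log2 values from a linear model of group and line, with the standard error (SE). "Rose", "fell" and "past 2-fold" are used of a difference of at least 2-fold with the same sign in both lines. Shares given below without an array follow a looser rule, since the sign could then be asked of 1 line only. A higher share without an array is therefore in part a matter of that rule. Where 1 of the groups compared had no array well above background, the fold is a lower bound, set against the lowest signal marked well above background on each array (1.17% to 2.64% of the 75th percentile). In bulk RNA, fewer cells of a type and less RNA per cell cannot be told apart. Between 64.0% and 74.4% of spots were well above background, the 75th percentile signal was 454 to 947 units, and no spot other than controls was saturated.

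After day 0 the 9 genes split into a group that gained signal, Spic, Vax2, Pla1a and Trpm1 in both arms and Pitx1 in FBS cells, and a group that lost it, Tmem54, Grp, Tnfsf11 and Il1rl1 in both arms. At day 10 against day 0, 8 of 9 genes were past 2-fold in serum-free cells, where 8.54% of all genes tested were (15.7% and 13.4% without the Stella-GFP array of day 0 or day 10). In FBS cells 9 of 9 were past 2-fold, where 12.7% of all genes were. At day 3 against day 0 the counts were 7 of 9 in serum-free cells, with 11.8% of all genes, and 8 of 9 in FBS cells, with 11.2% of all genes. Since these contrasts chose the genes, nothing is read from the gap between the counts and the shares of all genes.

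**Figure D1:**
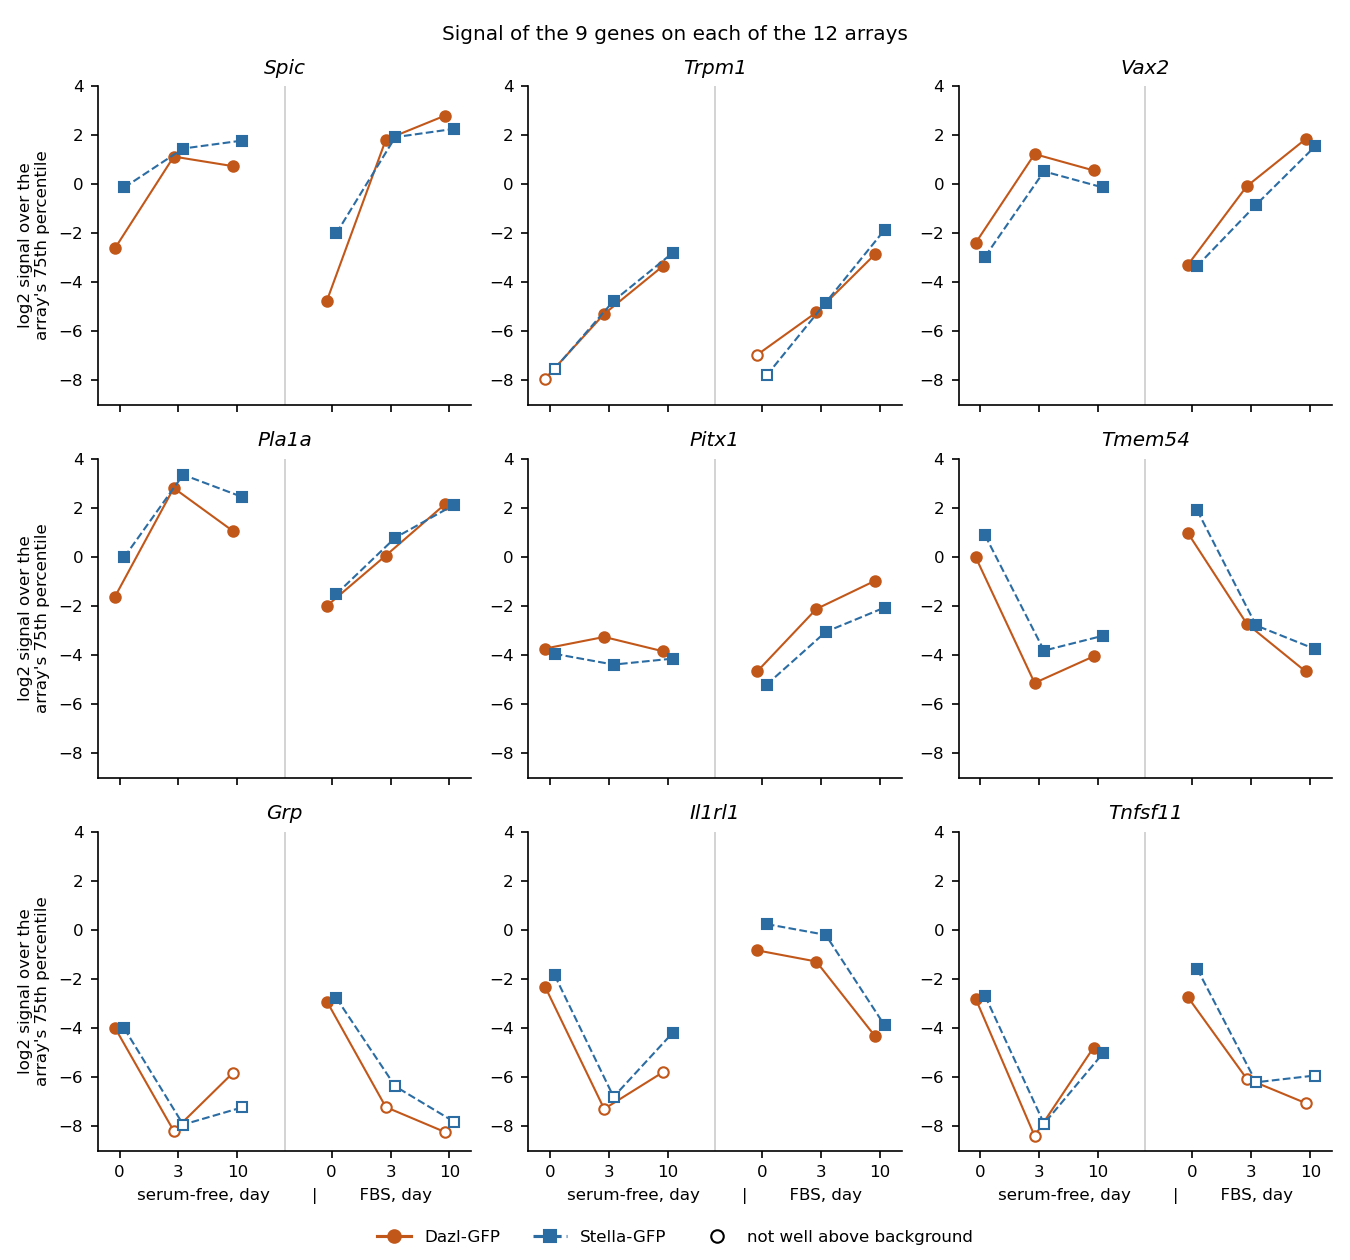
Signal of each gene (y axis, log2 over the array's 75th percentile) on each of the 12 arrays by arm and day (x axis), with Dazl-GFP as circles and Stella-GFP as squares, and open symbols for spots not well above background. Spic, Vax2, Pla1a and Trpm1 end higher at day 10 than at day 0 in both arms, Pitx1 only in FBS cells, and Tmem54, Grp, Tnfsf11 and Il1rl1 end lower.

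Spic encodes an Ets-family transcription factor of the PU.1 subfamily, known in mice for the red pulp macrophages of the spleen. It lies on chromosome 10 (GRCm38.p6, 88675269 to 88683023). Spic in serum-free cells was at 16.2%, 217% and 166% on days 0, 3 and 10 in Dazl-GFP and at 90.8%, 273% and 342% in Stella-GFP. Spic in FBS cells was at 3.71%, 350.5% and 690.2% in Dazl-GFP and at 24.85%, 377% and 476% in Stella-GFP. The arrays of days 3 and 10 lay above those of day 0 in both arms and lines, and the day 0 arrays of the lines stood far apart. In FBS cells Spic rose by 5.24 ± 0.78 (log2, SE) at day 3 and by 5.90 ± 0.78 at day 10, the highest fitted change of the 21977 genes at either day. The lines differed in size, with 7.54 in Dazl-GFP and 4.26 in Stella-GFP at day 10. In serum-free cells Spic rose by 2.67 ± 0.78 at day 3 and 2.64 ± 0.78 at day 10. The day 10 rise was smaller in serum-free than in FBS cells by -3.27 ± 1.10 on the log2 scale, with -4.18 in Dazl-GFP and -2.35 in Stella-GFP.

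A second Spic probe tracked the first over the 12 arrays (Pearson r = 0.999, a description), at a lower signal. The summed signal of 10 macrophage markers was 104% to 134% in serum-free cells at day 3, against 215% to 333% at day 0. In FBS cells the sum was 544% to 927% at day 3 and 217.5% to 249.4% at day 10, against 280.0% to 863% at day 0, so Spic was higher at day 10 than at day 0 while the marker sum was lower. Lyz2, the brightest of these markers on each FBS array, was lower with that sum. It was at 0.12 at day 10 and 2.64 at day 0 in Dazl-GFP FBS cells, and at -0.03 and 0.70 in Stella-GFP. Lyz1, Fcer1g and Cd14 were also lower in both lines, while Cd68 and Csf1r went the other way in both lines. Adgre1, Ctss and Tyrobp were higher at day 10 in Stella-GFP and lower in Dazl-GFP. Cd68 in FBS cells was -0.68 at day 10 and -1.11 at day 0 in Dazl-GFP, and -1.10 and -1.60 in Stella-GFP (log2 over the 75th percentile). The part of these cells in the Spic signal was not tested. Among the markers Itgam was well above background on 1 of 12 arrays. Of 7 other Ets genes related to Spic or near it in the family, 1 (Etv4) fell and 6 were not past 2-fold in serum-free cells at day 10 against day 0. In FBS cells 2 fell, Etv4 and Spib, a close relative of Spic, and none rose. Between the arms at day 3, Etv4, Fli1 and Ets1 were lower in serum-free than in FBS cells, and at day 10 none of the 7 was past 2-fold. The median of the 7 was 0.37 in serum-free cells, against 0.13 over all genes, and -0.03 in FBS cells, against -0.03 over all genes.

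The Spic promoter is shown because this gene had the largest rise after day 0 in FBS cells. The stretch runs from 250 bases before the start site to 50 after it (RefSeq, GRCm38.p6, chr10:88682974-88683273, minus strand), and holds none of the motifs searched, listed further on.
Spic promoter: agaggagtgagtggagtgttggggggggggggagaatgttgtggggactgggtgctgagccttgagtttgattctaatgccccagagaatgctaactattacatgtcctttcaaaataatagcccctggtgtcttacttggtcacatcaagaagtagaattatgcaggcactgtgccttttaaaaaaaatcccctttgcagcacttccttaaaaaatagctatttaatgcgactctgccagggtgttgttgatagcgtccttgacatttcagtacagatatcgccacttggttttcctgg

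Vax2, on chromosome 6 (83711239 to 83738313), is a homeobox factor that patterns the ventral retina. Vax2 in serum-free cells was at 19.0%, 233% and 147% on days 0, 3 and 10 in Dazl-GFP and at 12.9%, 143% and 90.8% in Stella-GFP. Vax2 in FBS cells was at 10.15%, 93.8% and 356.5% in Dazl-GFP and at 9.88%, 55.7% and 289.7% in Stella-GFP. Serum-free cells were highest at day 3 in both lines, FBS cells at day 10. In serum-free cells Vax2 rose by 3.55 ± 0.21 at day 3 and 2.89 ± 0.21 at day 10. In FBS cells it rose by 2.85 ± 0.21 at day 3 and 5.00 ± 0.21 at day 10. Serum-free over FBS, Vax2 was 2.53-fold higher at day 3 and 2.78-fold lower at day 10, with both lines on the same side each time and no overlap between the arms at either day.

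Pitx1, on chromosome 13 (55825044 to 55836190), is a paired-type homeobox factor of the hindlimb and pituitary. Pitx1 in serum-free cells was at 7.52%, 10.4% and 6.94% on days 0, 3 and 10 in Dazl-GFP and at 6.46%, 4.77% and 5.64% in Stella-GFP. Pitx1 in FBS cells was at 3.95%, 22.95% and 51.1% in Dazl-GFP and at 2.715%, 12.03% and 24.0% in Stella-GFP. The serum-free values of the 3 days overlapped, while the FBS values of the 3 days did not. In FBS cells Pitx1 rose by 2.34 ± 0.27 at day 3 and 3.42 ± 0.27 at day 10, and in serum-free cells the differences were 0.02 ± 0.27 and -0.15 ± 0.27. Serum-free over FBS, Pitx1 was 2.13-fold higher at day 0, 2.36-fold lower at day 3 and 5.59-fold lower at day 10. The day 0 difference turned negative (-0.73, log2) with normexp background correction on the local backgrounds as deposited, and was 0.55 with repaired backgrounds.

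Other eye and paired-type homeobox genes were set beside Vax2 and Pitx1. In serum-free over FBS at day 3, Otx2, a factor of the forebrain and eye, was higher by 1.72 ± 0.32. Pitx3, a lens and midbrain factor, differed by -1.04 ± 0.28, and Rax, a factor of the early eye field, by -2.25 ± 0.54 with 1 of 2 serum-free arrays well above background. At day 10 Pax6, a regulator of eye development, was higher by 2.13 ± 0.87, and Rax was at least 4.62-fold lower.

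Trpm1, on chromosome 7 (64153835 to 64269772), encodes a TRP-family cation channel of melanocytes and retinal bipolar cells. Trpm1 in serum-free cells was at 0.409%, 2.54% and 9.87% on days 0, 3 and 10 in Dazl-GFP and at 0.539%, 3.68% and 14.2% in Stella-GFP. Trpm1 in FBS cells was at 0.8025%, 2.65% and 13.8% in Dazl-GFP and at 0.4485%, 3.50% and 27.4% in Stella-GFP. The 4 arrays of day 0 were not well above background, and the 8 later ones were. At day 10 against day 0 Trpm1 was at least 6.86-fold higher in serum-free cells and at least 14.4-fold higher in FBS cells. Between days 3 and 10, both measured, it rose by 1.96 ± 0.38 in serum-free cells and 2.67 ± 0.38 in FBS cells. Serum-free minus FBS was 0.00 ± 0.38 at day 3 and -0.72 ± 0.38 at day 10, neither past 2-fold.

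This holds for the probe matching AF047714. A second probe, matching AK076406, was not well above background on any array. Of 6 melanocyte markers, Tyrp1 was not well above background on any array, and Tyr and Dct were on 3 and 2 of the 12 arrays. Mitf and Mlana, well above background on the 12 arrays, were higher at day 10 than at day 0 in both arms and lines. Mitf in FBS cells was at -0.98 at day 10 and -4.27 at day 0 in Dazl-GFP, and at -1.72 and -4.16 in Stella-GFP. In serum-free cells it was at -2.37 and -3.89, and at -2.61 and -3.77 (log2, on the scale used for the macrophage markers). Pmel was lower at day 10 in Dazl-GFP and nearly level in Stella-GFP in both arms. The 6 markers summed to 164% to 192.5% in serum-free cells at day 10, against 112% to 157% at day 0, and to 131% to 133.5% in FBS cells at day 10, against 88.0% to 96.9% at day 0. Their part in the Trpm1 signal was not tested. Of 7 other TRPM channels 3 were tested, and none of them was past 2-fold in any of the 9 comparisons of arm or day.

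The promoter of the downstream start in the table is shown because MITF, the melanocyte regulator of Trpm1, binds E-boxes. The E-box CACGTG at -229 from the start site and the M-box, here as CACATG on the opposite strand at 37 after it, are in capitals (RefSeq, GRCm38.p6, chr7:64185209-64185508, plus strand).
Trpm1 promoter: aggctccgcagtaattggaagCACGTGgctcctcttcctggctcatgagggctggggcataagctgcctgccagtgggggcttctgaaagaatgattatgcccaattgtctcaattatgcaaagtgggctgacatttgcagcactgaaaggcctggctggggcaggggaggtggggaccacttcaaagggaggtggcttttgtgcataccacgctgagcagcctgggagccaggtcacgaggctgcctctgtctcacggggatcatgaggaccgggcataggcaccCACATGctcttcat

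Pla1a, on chromosome 16 (38396117 to 38433191), is a secreted phospholipase that cleaves phosphatidylserine and yields lysophosphatidylserine. Pla1a in serum-free cells was at 32.4%, 702.5% and 209% on days 0, 3 and 10 in Dazl-GFP and at 99.6%, 1023% and 547% in Stella-GFP. Pla1a in FBS cells was at 25.1%, 104% and 442% in Dazl-GFP and at 35.15%, 173% and 437% in Stella-GFP. As with Vax2, the serum-free arrays were highest at day 3 in both lines and the FBS arrays at day 10. In serum-free cells Pla1a rose by 3.90 ± 0.38 at day 3 and then fell by 1.33 ± 0.38 between days 3 and 10. In FBS cells it rose by 2.17 ± 0.38 at day 3 and by a further 1.71 ± 0.38 between days 3 and 10. Serum-free over FBS, Pla1a was 6.32-fold higher at day 3, with no overlap of the arrays, and differed by -0.38 ± 0.38 at day 10, with the lines on opposite sides of 0.

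Of 9 other phospholipase A1 genes and lysophosphatidylserine receptors, 4 were tested. Liph, a membrane-bound phospholipase A1, was 3.52-fold higher in serum-free than in FBS cells at day 3 and 2.10-fold higher at day 10, and the other 3 were not past 2-fold. Liph differed by 0.49 ± 0.28 in serum-free cells at day 3 against day 0 and fell by 1.17 ± 0.28 in FBS cells.

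Tmem54, on chromosome 4 (129105529 to 129111626), encodes a membrane protein of little known function. Tmem54 in serum-free cells was at 99.4%, 2.84% and 6.01% on days 0, 3 and 10 in Dazl-GFP and at 184%, 7.08% and 10.8% in Stella-GFP. Tmem54 in FBS cells was at 197.5%, 15.2% and 3.93% in Dazl-GFP and at 373%, 14.4% and 7.40% in Stella-GFP. The arrays of day 0 stood above those of days 3 and 10 in both arms, with no overlap. In serum-free cells the differences from day 0 were -4.92 ± 0.30 at day 3 (30.2-fold lower) and -4.07 ± 0.30 at day 10. In FBS cells the differences were -4.20 ± 0.30 at day 3 and -5.65 ± 0.30 at day 10 (50.4-fold lower). These were among the 5 lowest fitted changes of the 21977 genes in each of the 4 comparisons. Serum-free over FBS it was 2.01-fold lower at day 0 and 3.30-fold lower at day 3, and 1.49-fold higher at day 10, which is not past 2-fold.

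The Tmem54 promoter is shown because this gene was among the lowest fitted changes after day 0 in both arms, and it holds the AP-1 motif, which Fos and Jun proteins bind. The motif (TGACTCA, at -21) and 2 M-boxes are in capitals (RefSeq, GRCm38.p6, chr4:129105280-129105579, plus strand).
Tmem54 promoter: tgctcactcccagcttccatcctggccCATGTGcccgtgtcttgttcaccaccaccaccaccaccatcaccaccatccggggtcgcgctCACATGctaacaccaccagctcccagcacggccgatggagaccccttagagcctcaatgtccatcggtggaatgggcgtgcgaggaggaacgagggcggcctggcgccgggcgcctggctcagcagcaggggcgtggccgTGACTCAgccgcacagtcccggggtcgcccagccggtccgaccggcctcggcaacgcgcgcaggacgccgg

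Grp, on chromosome 18 (65872751 to 65886599), encodes gastrin-releasing peptide, a bombesin-family neuropeptide that acts through the receptor Grpr. Grp in serum-free cells was at 6.33%, 0.340% and 1.74% on days 0, 3 and 10 in Dazl-GFP and at 6.17%, 0.407% and 0.661% in Stella-GFP. Grp in FBS cells was at 13.2%, 0.667% and 0.330% in Dazl-GFP and at 14.55%, 1.20% and 0.440% in Stella-GFP. The 4 arrays of day 0 were well above background, and the 8 later ones were not, so the later values have no order. At day 10 against day 0 Grp was at least 3.18-fold lower in serum-free cells and at least 9.01-fold lower in FBS cells. At day 0 it was 2.22-fold lower in serum-free than in FBS cells, with no overlap of the arrays. Of 4 other bombesin peptides and receptors 2 were tested. Nmbr, the neuromedin B receptor, was at least 2.76-fold higher in serum-free than in FBS cells at day 3 (mean log2 of -4.07, against -7.80), and at least 3.45-fold higher than in serum-free cells at day 0. Nmb, its peptide, differed by -0.20 ± 0.24 in serum-free cells and by 0.26 ± 0.24 in FBS cells at day 10 against day 0.

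Tnfsf11, on chromosome 14 (78277446 to 78308043), encodes RANKL, the TNF-family signal for osteoclast formation, which binds the receptor RANK and is caught by the decoy receptor osteoprotegerin (Tnfrsf11b). Tnfsf11 in serum-free cells was at 14.3%, 0.295% and 3.59% on days 0, 3 and 10 in Dazl-GFP and at 15.5%, 0.418% and 3.05% in Stella-GFP. Tnfsf11 in FBS cells was at 15.0%, 1.49% and 0.747% in Dazl-GFP and at 33.2%, 1.35% and 1.63% in Stella-GFP. With this probe, signal well above background was found at day 0 in both arms and again at day 10 in serum-free cells. At day 3 against day 0 Tnfsf11 was at least 10.1-fold lower in serum-free cells and at least 10.3-fold lower in FBS cells. At day 10 it was at least 2.15-fold higher in serum-free than in FBS cells. The second probe of Tnfsf11 disagreed on the serum-free course (r = 0.828 between them over 12 arrays). It was not well above background in serum-free cells at day 10, so that return was seen with 1 of 2 probes. At day 3 it was well above background in Dazl-GFP serum-free cells, at 2.449%. Its day 3 minus day 0 differences there were -1.64 in Dazl-GFP and -4.58 in Stella-GFP, so the Dazl-GFP difference was smaller than the bound of the first probe.

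Among 9 other genes of the RANKL pathway, Tnfrsf11b was 2.63-fold lower in serum-free than in FBS cells at day 3 (-1.39 ± 0.29), and the other 8 were not past 2-fold there. None of the 9 was past 2-fold between the arms at day 10. The medians of the list were -0.51 at day 3, against -0.20 over all genes, and 0.26 at day 10, against 0.11. The 5 osteoblast markers, mostly Alpl, summed to 4741% to 5505% in serum-free cells at day 3, against 1636% to 2172% at day 0, and Ibsp among them was well above background on 1 of 12 arrays. Bglap was higher with the sum in both lines, while Runx2 went the other way and Sp7 was not higher. Runx2 in serum-free cells was at -7.66 at day 3 and -5.44 at day 0 in Dazl-GFP, and at -8.07 and -5.31 in Stella-GFP. Sp7 was at -3.67 and -3.51, and at -3.26 and -3.24 (log2, on the scale used for the macrophage markers). The part of these cells in the Tnfsf11 signal was not tested.

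The Tnfsf11 promoter is shown because its TATA box lies at -32, read on the opposite strand as TTTATA (RefSeq, GRCm38.p6, chr14:78307994-78308293, minus strand).
Tnfsf11 promoter: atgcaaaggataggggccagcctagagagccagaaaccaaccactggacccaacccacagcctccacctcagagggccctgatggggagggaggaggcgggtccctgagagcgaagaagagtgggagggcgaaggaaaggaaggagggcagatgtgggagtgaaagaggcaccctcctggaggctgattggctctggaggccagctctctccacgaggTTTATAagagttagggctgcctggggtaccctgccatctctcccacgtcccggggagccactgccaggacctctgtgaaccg

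Il1rl1, on chromosome 1 (40404864 to 40465418), encodes ST2, the receptor of the cytokine IL-33, known from mast cells and type 2 lymphoid cells. It was first found as a gene that serum induces in mouse fibroblasts. Il1rl1 in serum-free cells was at 19.9%, 0.634% and 1.79% on days 0, 3 and 10 in Dazl-GFP and at 27.7%, 0.891% and 5.42% in Stella-GFP. Il1rl1 in FBS cells was at 56.1%, 40.9% and 4.93% in Dazl-GFP and at 118%, 87.0% and 6.73% in Stella-GFP. In serum-free cells no array was well above background at day 3, and 1 of 2 was at day 10. In FBS cells the arrays of days 0 and 3 overlapped, and those of day 10 lay below both. At day 3 Il1rl1 was at least 40.5-fold lower in serum-free than in FBS cells (mean log2 of -7.06, against -0.74). Against day 0 it was at least 15.9-fold lower at day 3 in serum-free cells and differed by -0.45 ± 0.30 in FBS cells. At day 10 it was lower, by -2.91 ± 0.30 in serum-free cells, with 1 of 2 arrays measured, and by -3.82 ± 0.30 in FBS cells.

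A probe for another transcript of the gene (NM_001025602, against NM_010743 for the probe above) was well above background on the 12 arrays. Its signal at day 3 was 3.101% and 4.57% in Dazl-GFP and Stella-GFP serum-free cells, against 18.15% and 28.0% in FBS cells. It was lower at day 3 by 5.99-fold in serum-free than in FBS cells, and correlated with the first at 0.943 over 12 arrays. At day 10 against day 0 it fell in FBS cells by 1.80 ± 0.17, but in serum-free cells it differed by -0.62 ± 0.17, under 2-fold, so the serum-free fall at day 10 was seen with the first probe and not with this one. Another, dim probe, for the same transcript as the first, correlated with them at 0.512 and 0.62. Its arm difference at day 3 was -0.74 ± 0.63, with 0.32 in Stella-GFP and -1.79 in Dazl-GFP. In serum-free cells it was not well above background at day 0, and at day 3 it was in Stella-GFP only, at 4.05%. No serum-free fall at day 3 was therefore seen with it.

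Summed feeder and macrophage markers were lower with Il1rl1 in serum-free cells at day 3, though not each marker was, with Pdgfra and Cd68 higher in serum-free than in FBS cells in both lines. The 12 fibroblast markers, above background in every group, summed to 1142% to 1721% in serum-free cells at day 3, against 5898% to 10920% in FBS cells at day 3. The 10 macrophage markers summed to 104% to 134% in serum-free cells at day 3, against 544% to 927% in FBS cells. In FBS cells at day 10, where Il1rl1 was 14.1-fold lower than at day 0, the fibroblast sum was 3949% to 5816%, against 4202% to 4553% at day 0. Its markers moved both ways there: Col1a1 was higher at day 10 than at day 0 in both lines, while S100a4, Tagln and Twist2 were lower with Il1rl1 in both lines. The part of these cells in the Il1rl1 signal was not tested. The 8 mast cell markers summed to 380% to 472% in serum-free cells at day 3, against 458% to 467.5% in FBS cells, with Cpa3 well above background on 1 of 12 arrays. Like sums hid opposite moves of the brightest markers. Kit was at 2.10 and 1.42 (log2) in Dazl-GFP and Stella-GFP serum-free cells, against 1.45 and 0.95 in FBS cells. Gata2 was lower with Il1rl1, at -2.76 and -0.66 against 0.46 and 1.22. Hdc was also higher in both lines, Cma1 and Mcpt4 also lower, and Tpsb2 and Fcer1a differed between the lines.

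**Figure D2:**
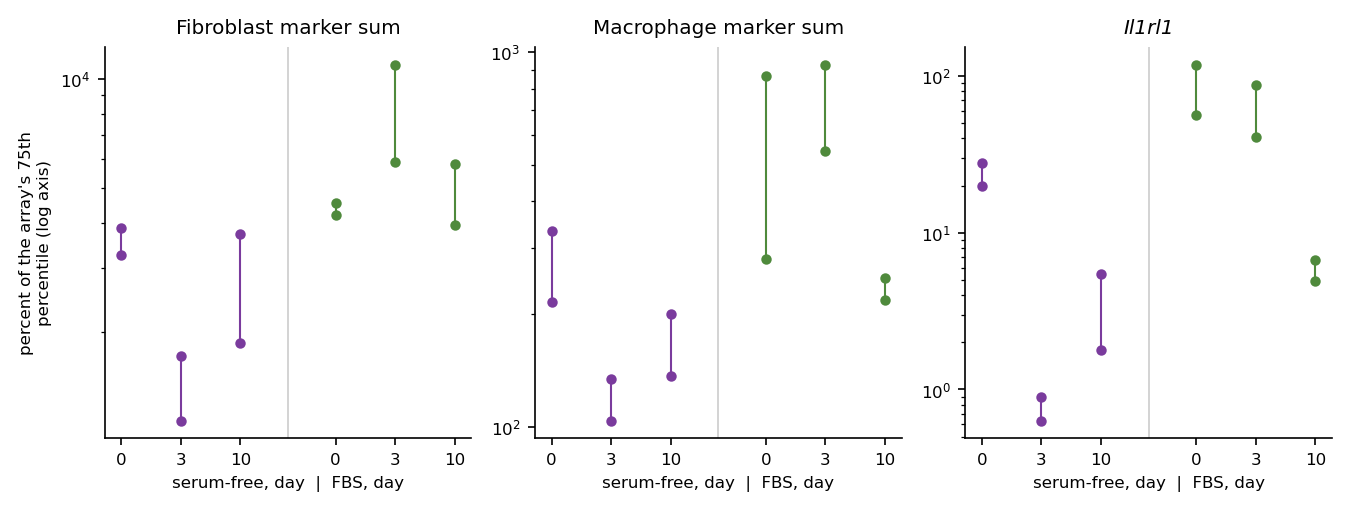
Summed signal of the fibroblast markers, of the macrophage markers and signal of Il1rl1 (y axes, percent of the array's 75th percentile, log scale) on the 2 arrays of each arm and day (x axis), each point an array, with Il1rl1 points under 2% not well above background. Serum-free cells at day 3 are lowest in each panel, and in FBS cells Il1rl1 falls at day 10 while the fibroblast sum, in which Col1a1 is higher and S100a4, Tagln and Twist2 are lower than at day 0, lies between 3949% and 5816%.

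Of 6 other genes of IL-33 signalling, Il33 itself differed by -1.05 ± 0.69 between serum-free and FBS cells at day 3, with 1 array well above background in each group, and 5 were not past 2-fold. In FBS cells Il33 differed from day 0 by -2.81 ± 0.69 at day 3 and -3.21 ± 0.69 at day 10, with 1 of 2 later arrays well above background each time. Of 5 neighbours of Il1rl1 in its receptor gene cluster 3 were tested. In FBS cells at day 10 against day 0, Il1rl2 and Il1r1 rose by 1.21 ± 0.19 and 1.11 ± 0.34, while Il1rl1 fell. Il1r2, a decoy receptor for IL-1, was at least 2.06-fold lower in serum-free than in FBS cells at day 10.

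The Il1rl1 promoter is shown because it is the one of the 8 windows that holds the CRE core motif (TGACGTT, at -34, in capitals; RefSeq, GRCm38.p6, chr1:40439379-40439678, plus strand).
Il1rl1 promoter: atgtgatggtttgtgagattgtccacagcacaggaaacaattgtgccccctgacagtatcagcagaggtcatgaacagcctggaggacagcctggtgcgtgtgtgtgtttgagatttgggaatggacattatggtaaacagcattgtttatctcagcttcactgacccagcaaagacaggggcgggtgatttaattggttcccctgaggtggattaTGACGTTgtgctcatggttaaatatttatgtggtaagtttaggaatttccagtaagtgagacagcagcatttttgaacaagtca

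Promoters of 5 of the 9 genes, in 8 windows of 300 bases, were in the RefSeq table and were searched on both strands for 9 motifs. AP-1 (TGANTCA) is in 7.81% of the 32851 promoters of this length and was found in both overlapping windows of Tmem54. The CRE core motif (TGACGTN) is in 7.50% and was found in 1 Il1rl1 window, the E-box CACGTG is in 7.15% and was found in 1 Trpm1 window, and TATAAA is in 13.6% and was found in Tnfsf11. The M-box CATGTG, in 14.2% of promoters, was found in the windows of Trpm1 and Tmem54. The motifs of TCF/LEF (CTTTGAT, 3.73%), STAT (TTCNNNGAA, 8.30%), PU.1 (GAGGAAG, 13.6%) and SRF (the CArG box, 1.63%) were not in these 8 windows.

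**Figure D3:**
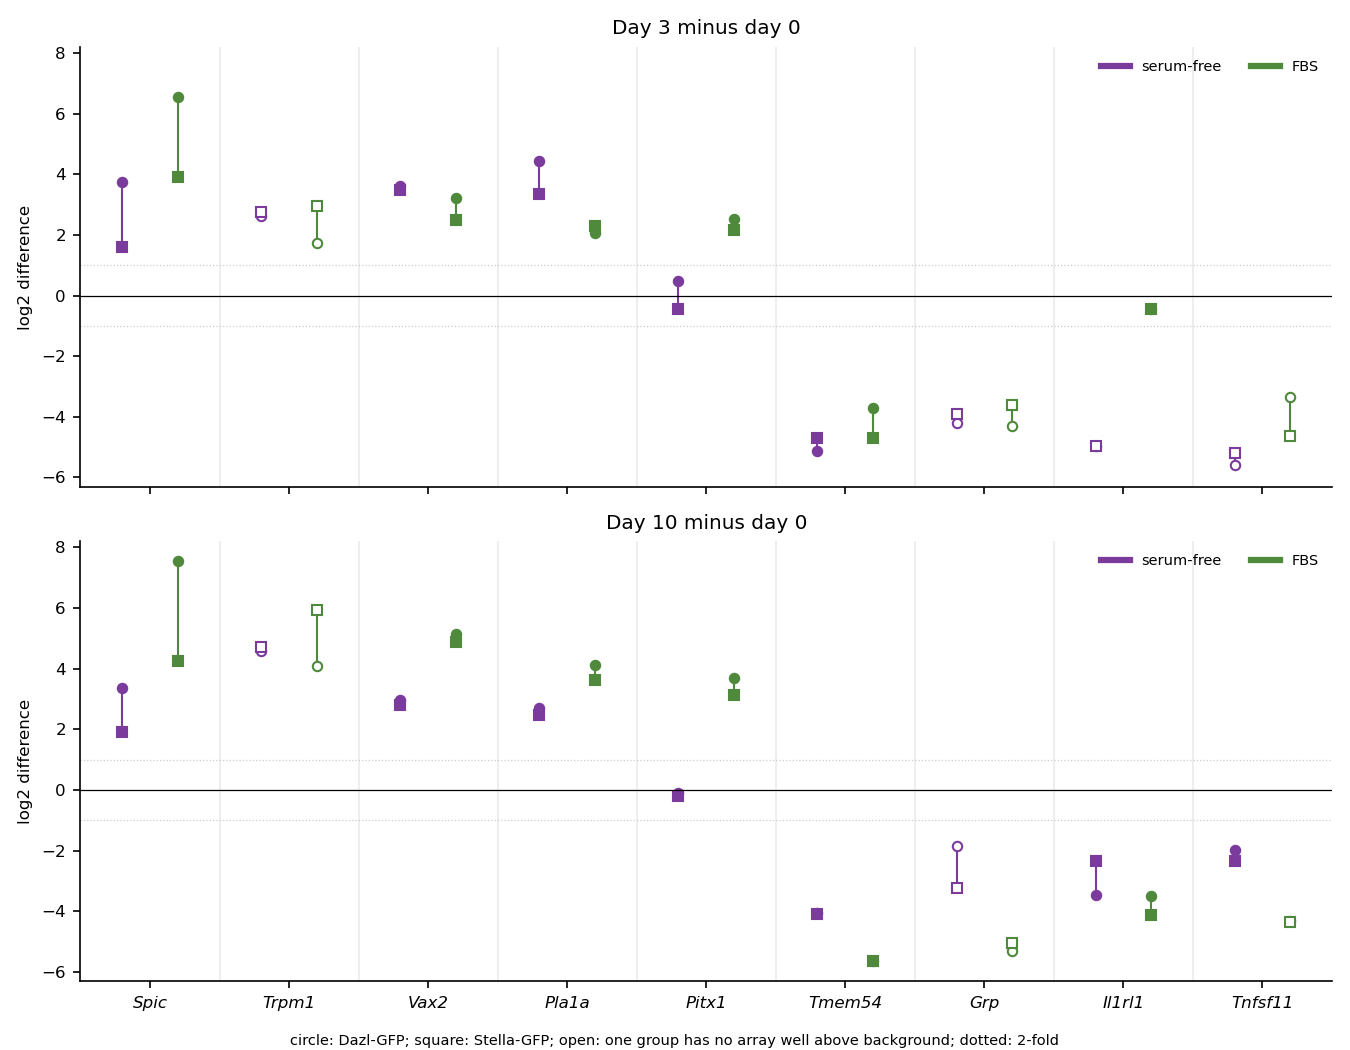
Log2 difference from day 0 (y axis) at day 3 and day 10 for each gene (x axis) in serum-free and FBS cells, with the Dazl-GFP value as a circle and the Stella-GFP value as a square, and open symbols where at least 1 group had no array well above background. Spic at day 10 in FBS cells lies highest, at 5.90 on average, and Pitx1 lies near 0 in serum-free cells and at 3.42 on average in FBS cells at day 10.

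In serum-free cells 4 of 9 genes were past 2-fold between days 3 and 10, where 7.35% of all genes were (15.6% and 13.1% without the Stella-GFP array of day 10 or day 3). In FBS cells 6 of 9 were, where 6.32% of all genes were (9.69% and 10.5% without the Stella-GFP array of day 10 or day 3). Vax2, Pla1a, Tmem54 and Il1rl1 had day 10 minus day 3 differences of opposite sign in serum-free and FBS cells in both lines. Those of Vax2 and Tmem54 in serum-free cells were under 2-fold and that of Il1rl1 is a bound, with no day 3 array measured. In Dazl-GFP serum-free cells Il1rl1 was not well above background at day 10 either, so its sign in that line was not measured. Counted by sign alone these are 4 of 9 genes. Of all genes tested 43.2% did the same, so the share among the 9 is near that of all genes. The slides give no separate support here, since a difference within a slide is the difference of 1 line that the 2-fold rule already uses.

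Between the arms, 5 of 9 genes were past 2-fold at day 0, where 8.05% of all genes were (12.6% without the Stella-GFP serum-free array). Spic and Pitx1 were higher in serum-free than in FBS cells, and Tmem54, Grp and Il1rl1 were lower. At day 3, 5 of 9 were past 2-fold, where 15.1% of all genes were, with Vax2 and Pla1a higher and Pitx1, Tmem54 and Il1rl1 lower. At day 10, 4 of 9 were past 2-fold, where 8.5% of all genes were (13.6% without the Stella-GFP serum-free array), with Tnfsf11 higher and Spic, Vax2 and Pitx1 lower. The day 10 difference of Spic was -1.27 ± 0.78, with -2.05 in Dazl-GFP and -0.48 in Stella-GFP, and it turned to 0.27 with the slide in the model. The day 0 difference of Tmem54, -1.01 ± 0.30, lay just past 2-fold. The arms shared a slide at day 10 on none of the 3 slides and at day 0 on none, so no within-slide value exists there. At day 3, 1 slide held both arms, but in different lines. Of the other slides, 1 held FBS arrays only and 1 serum-free arrays only, so arm and slide are largely confounded.

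**Figure D4:**
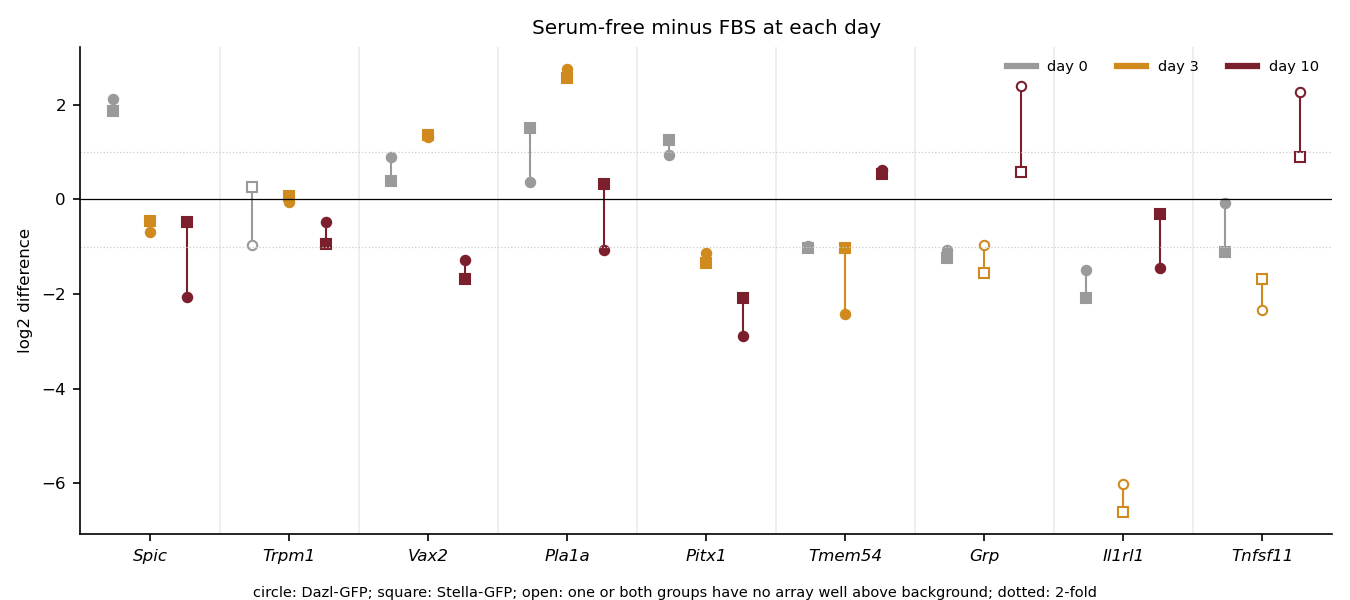
Log2 difference serum-free minus FBS (y axis) at days 0, 3 and 10 for each gene (x axis), with the Dazl-GFP value as a circle and the Stella-GFP value as a square, and open symbols where at least 1 group had no array well above background. Il1rl1 at day 3 lies lowest, as open symbols that stand for a bound of -5.34, and Pla1a at day 3 highest among filled symbols, at 2.66 on average.

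The rise and fall after day 0 differed between the arms in size. The day 3 change could be compared for 5 of the 9 genes, those measured in the groups involved, and 3 of these 5 differed by 2-fold or more. That is 3 of the 9, where 14.4% of the 21977 genes tested differed so. Genes that could not be compared count in that share as not past 2-fold. Pla1a had the larger rise in serum-free cells, by 1.73 ± 0.53, and Spic and Pitx1 the smaller, by -2.58 ± 1.10 and -2.33 ± 0.38. For the day 10 change 6 genes could be compared and 5 differed, which is 5 of the 9, where 13.2% of the 21977 genes did. Tmem54 had the smaller fall in serum-free cells (1.58 ± 0.42), and Spic, Vax2, Pitx1 and Pla1a the smaller rise (-3.27 ± 1.10, -2.12 ± 0.30, -3.57 ± 0.38 and -1.31 ± 0.53).

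The cell lines were compared over the 6 groups, a contrast that did not choose the genes. The arrays of a line are samples of that 1 line at different arms and days. The lines were unevenly spread over the 3 slides, so line and slide are partly confounded. With slide in the limma model, 1 of 21977 genes passed an adjusted p of 0.05, and Il1rl1 differed by -1.33 ± 0.225 (adjusted p = 0.174). The values that follow are from the model without slide. With limma and Benjamini-Hochberg adjustment over 21977 genes, 1 of 9 genes, Il1rl1, passed an adjusted p of 0.05, and 2.72% of all genes (598) did. Il1rl1 was lower in Dazl-GFP than in Stella-GFP cells (-0.86 ± 0.17, adjusted p = 0.0494), in each of the 4 groups where both arrays were well above background. The value also uses serum-free day 3 (-0.49), with neither array well above background, and serum-free day 10 (-1.60), with the Dazl-GFP array not above it. The call is narrow: over the 8 other settings the adjusted p was 0.0268 to 0.633, under 0.05 in 3. With each of the 12 arrays left out in turn the difference was -0.944 to -0.715. Leaving out either array of a group gave the same difference, since the other array then had no partner, so these are not 12 separate checks. Each probe was also fitted singly with limma, over probes well above background on at least 2 arrays and those of the 9 genes. The Il1rl1 probe for NM_001025602, measured on the 12 arrays, differed by -0.60 ± 0.10 (adjusted p = 0.0239). In that fit the first Il1rl1 probe had an adjusted p of 0.0505, and the dim probe differed by -0.49 ± 0.36 (adjusted p = 0.532). In the fit of genes the other 8 missed the threshold. Over the 9 other settings, though, the adjusted p of Tmem54 was under 0.05 in 5, and those of Pitx1, Pla1a and Vax2 in 2 each. Which of the 9 genes passed thus depended on the setting. Tmem54 differed by -0.80 ± 0.17 (adjusted p = 0.0588) and Pla1a by -0.79 ± 0.22 (adjusted p = 0.114), each lower in Dazl-GFP in 5 of 6 groups. Pitx1 differed by 0.70 ± 0.16 (adjusted p = 0.0631) and Vax2 by 0.51 ± 0.12 (adjusted p = 0.0805), each higher in Dazl-GFP in 6 of 6 groups. The adjusted p of Grp, Trpm1, Tnfsf11 and Spic were 0.962, 0.485, 0.383 and 0.303, for the first 3 with arrays not well above background in the fit.

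The Spic difference was uneven over the groups. Dazl-GFP minus Stella-GFP was -2.49 in serum-free and -2.75 in FBS cells at day 0, and between -1.04 and 0.54 in the other 4 groups. The mean over groups was -1.03 ± 0.45. Whether the line difference itself differed between the arms was tested with an interaction term. limma called 0 of 21977 genes at an adjusted p of 0.05, with 2340 genes at an unadjusted p under 0.05, and the 9 genes had adjusted p of 0.473 to 0.988.

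**Figure D5:**
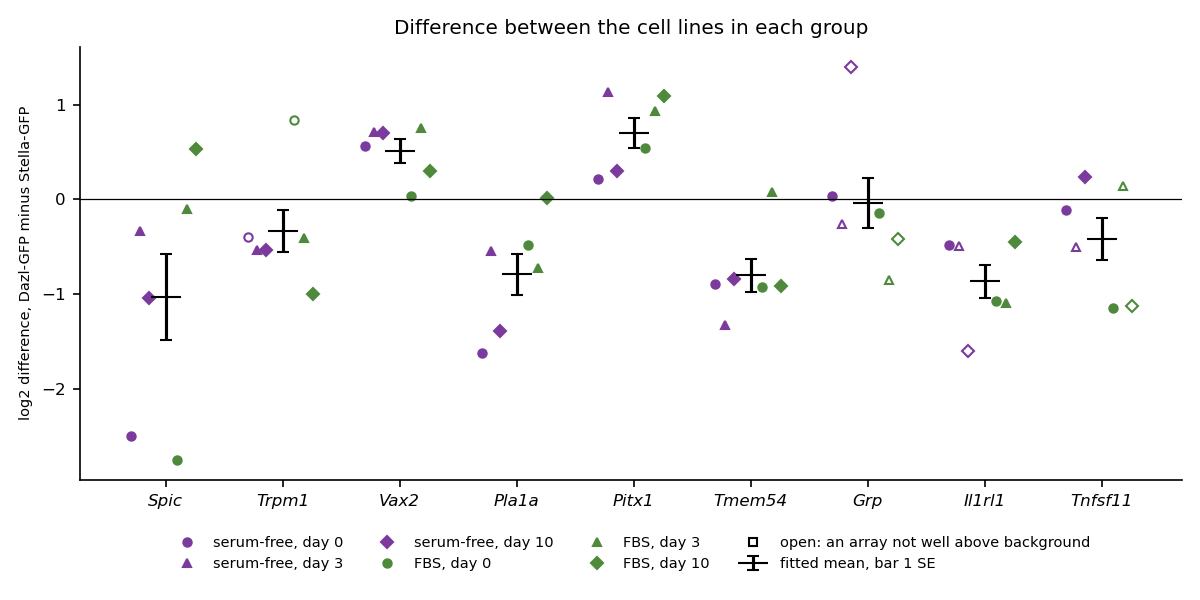
Log2 difference Dazl-GFP minus Stella-GFP (y axis) for each gene (x axis) in each of the 6 groups, with the fitted mean and a bar of 1 SE, and open symbols where at least 1 of the 2 arrays was not well above background. Vax2 and Pitx1 lie above 0 in 6 of 6 groups, Il1rl1 below 0 in the 4 groups with filled symbols, and Spic is near -2.5 to -2.75 at day 0 only.

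Readouts of the inhibited pathways were set beside the 9 genes. Of 9 MEK-ERK readout genes, 5 fell and none rose in serum-free cells at day 10 against day 0 (median -1.07, against 0.13 over all genes). In FBS cells 5 fell and 1 rose (median -1.92, against -0.03). Dusp6, the ERK phosphatase, differed by -1.64 ± 0.37 in serum-free and -3.05 ± 0.37 in FBS cells. Spry4, a feedback inhibitor, differed by -3.16 ± 0.29 in serum-free and -5.72 ± 0.29 in FBS cells. At day 3 against day 0, Egr1, Spry4, Dusp6 and Etv4 fell in serum-free cells and none rose (median -0.99, against -0.03 over all genes). In FBS cells Spred1, Spry4, Dusp6 and Etv4 fell, while Fos and Egr1 rose (median -0.62, against 0.09). Between the arms at day 3, 4 of 9 were lower in serum-free than in FBS cells and none was higher. Among them were Fos at -4.21 ± 0.47, which rose in FBS cells and was not past 2-fold in serum-free cells, and Egr1 at -3.10 ± 0.45. At day 10, 2 were higher, Spry4 and Dusp4, and 1, Fos, was lower (median 0.67, against 0.11 over all genes). Of 8 β-catenin readout genes tested, 4 were lower in serum-free than in FBS cells at day 3, with Sp5 at -3.90 ± 0.48 and Nkd1 at -1.77 ± 0.29, and 3 were higher at day 10, with Lef1 at 2.74 ± 0.67 and Sp5 at 2.42 ± 0.48. In serum-free cells 5 of the 8 fell and none rose at day 3 against day 0 (median -1.58, against -0.03), and at day 10 Sp5 rose and none fell. In FBS cells Lef1 and Nkd1 fell at both days, and Sp5 rose at day 3 and none rose at day 10.

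Across the 12 arrays the 9 genes were set against each other and against 15032 candidate genes, as a description over arrays that share lines, slides and days. Vax2 and Tmem54 were the most opposed pair (r = -0.971), and Pitx1 and Il1rl1 were nearly unrelated (r = -0.161). The gene most like Spic was Klf2 (r = 0.967), a factor of naive pluripotency, followed by Sdhb and Osbpl1a. For Vax2 it was Glrx (0.970), then Prickle2 and Tmem117, and for Pitx1 Serpinb1c (0.943), then Spp1 and Serpinb1a. For Trpm1 it was Plekha2 (0.974), then A2m and Card6, and for Tmem54 Gramd3 (0.977), then Ttll1 and Rbp7. For Pla1a it was Add1 (0.968), then Npc2 and Ostf1. Il1rl1 was most like Gli1 (0.982), S100a6 and Dazap1, with 9 of its 12 arrays well above background. Trpm1 was well above background on 8 of 12 arrays. No likeness is given for Grp and Tnfsf11, which were well above background on 4 and 6 of 12 arrays.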

How the data were processed

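Total RNA was labelled with Cy3 and hybridised to 12 one-colour Agilent arrays on 3 slides read in 1 scan session. Spot intensity values were deposited as scanner output, and per the file headers Feature Extraction 9.1.3.1 subtracted the background, detrended the signals and flagged each spot. The authors' deposited table holds, as its values show, the ratio of background-subtracted signal to the array median (column medians 1, floor 0.1), and was used as an alternative.

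From the processed signal, log2 values minus each array's 75th percentile were computed. Spots of a probe were averaged, outlier flags and controls were left out, and the brightest probe stood for a gene. limma 3.58.1 in R 4.3.3 fitted group and cell line to the 12 arrays, with 5 residual degrees of freedom, for genes well above background on at least 2 arrays, and p-values were adjusted by Benjamini-Hochberg. The scripts were tested on simulated data.

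The 9 genes, gene lists and markers were chosen with earlier results of these data known. Named genes were the 9, the 3 genes most correlated with each, and up to 4 genes of each list past 2-fold between arms at day 3 or 10. Spib, Il1rl2, Il1r1, Dusp6 and Nmb lie outside that rule or its limit and were named after their values were seen. Some results that this rule names are not reported here. Replicate numbers pair the arrays, since replicate 1 is Stella-GFP and replicate 2 is Dazl-GFP in each group. Deviations of the lines correlated at -0.052 to 0.572 over 15 pairs of groups, above 0.1 in 13. The number of arrays limits the precision, and p-values measure the spread between these arrays. Alternatives changed the scaling, background correction, source table, filter, probe rule, blocks and variance trend, and left out each array in turn.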

Additional observations from a re-analysis of the deposited data

Results flagged for a closer look

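Pairs of differences of opposite sign in serum-free and FBS cells, or at days 3 and 10, in both lines are given here on the log2 scale. The sign alone placed a pair here, whatever its size or nearness to background, and in none of them was the difference tested. Pitx1 at day 10 against day 0 differed by -0.15 ± 0.27 (SE) in serum-free and by 3.42 ± 0.27 in FBS cells. The serum-free value is near 0 and the arrays of its days overlapped, so no fall is read from it. Of all genes tested, 16.5% also had opposite signs there.

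At day 10 against day 3, Vax2 differed by -0.66 in serum-free and 2.15 in FBS cells, and Pla1a by -1.33 and 1.71. Tmem54 differed by 0.84 in serum-free and -1.46 in FBS cells. Il1rl1 was at least 2.12-fold higher in serum-free cells (a bound of 1.08, since no array of day 3 and 1 of 2 of day 10 was well above background), and differed by -3.37 in FBS cells. In Dazl-GFP serum-free cells it was not well above background at either day, so no direction was measured there. Its probe for NM_001025602 differed by 0.77 in serum-free cells, under 2-fold, and the dim probe gave no value. Of all genes tested, 43.2% ran in opposite directions between those days.

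Serum-free minus FBS, Vax2 differed by 1.34 at day 3 and -1.48 at day 10, and Tmem54 by -1.72 at day 3 and 0.58 at day 10. Of all genes tested, 27.6% changed sign between those days.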

How the results depend on the processing

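With 2 arrays in a group, most counts of the 9 genes stayed within 1.5 times of the reported ones. The exceptions follow, and their cause was not tested unless named. Arm and day counts with an array left out rest on a looser rule, since the sign could then be asked of 1 line only in comparisons using that array. With normexp background correction, 3 genes were past 2-fold between the arms at day 0, 1 in serum-free and 3 in FBS cells at day 10 against day 3, 3 for the day 10 change between arms, and 0 passed the line test. Repaired backgrounds gave 3 between the arms at day 0, 1 and 3 for day 10 against day 3 in serum-free and FBS cells, and 3 in the line test. Quantile normalization gave 2 genes for serum-free day 10 against day 3 and 2 in the line test, and the authors' deposited table gave 2 for serum-free day 10 against day 3. Keeping genes above background on all 12 arrays left 5 of the 9 by construction, with 3 past 2-fold between the arms at day 0, 4, 4 and 1 in serum-free cells (day 3 and day 10 against day 0, day 10 against day 3), 5 and 5 in FBS cells (day 3 and day 10 against day 0), and 3 in the line test. The line test gave 0 without the filter, with the mean of probes and with slide as a block, and 5 with a variance trend. Leaving out each array in turn gave 4 to 5, 4 to 6 and 3 to 5 genes between the arms at days 0, 3 and 10, then 7 to 8, 8 to 8 and 3 to 5 in serum-free cells and 7 to 8, 9 to 9 and 5 to 7 in FBS cells, 3 to 4 and 4 to 6 for the day 3 and day 10 changes between arms, 0 to 1 in the line test and 0 to 0 in its interaction with arm. 2 values turned sign: Pitx1 between arms at day 0 to -0.73 with normexp, and Spic between arms at day 10 to 0.27 with slide as a block. Without the replicate block of cell line the arm and day counts were the same, for example 9 in FBS and 8 in serum-free cells at day 10 against day 0. Over all genes, 1390 to 3313 were past 2-fold in the 11 comparisons of arm and day. That range was 429 to 4280 with normexp, 429 to 1705 with repaired backgrounds, 923 to 2698 on all 12 arrays and 1390 to 4548 with slide. The 598 genes of the line test became 10, 1355, 1 and 1027 with normexp, repaired backgrounds, slide and variance trend, and 184 to 423 with an array left out, which moved the arm and day counts to between 1375 and 4597. In quantile normalization the median of all genes between the arms at day 3 moved to -0.07, against -0.20. Signals near background limit Grp, Trpm1 at day 0, and Tnfsf11 and Il1rl1 where not well above background.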
